A study of Notophthalmus viridescens with 12 samples.

Results

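A set of 99 assembled transcripts of the newt dorsal iris was low in intact eyes and at 6 h post-lentectomy (hpl) and high at 1 and 4 days post-lentectomy (dpl), out of 856451 transcripts measured. The transcripts were chosen on these values, so their levels are given as a description and carry no test. To be chosen, a transcript needed a mean abundance of 50 or more at 1 dpl and at 4 dpl, and its lowest late library had to lie at least 1.5 log2 units above its highest early library. Here the late libraries are the 6 of 1 and 4 dpl, the early libraries are the 6 of intact eyes and 6 hpl, and log2 values are log2(abundance + 1). The mean log2 values of the 2 late groups, and those of the 2 early groups, also had to lie within 1.5 of each other.

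Lentectomy is the surgical removal of the lens. Adult newts replace it from the pigmented epithelial cells of the dorsal iris, which lose their pigment, return to the cell cycle and form a new lens, while the ventral iris normally does not. The first days after the operation are a period of wound response in the eye, with clotting, entry of immune cells and changes in the matrix around the iris, before a lens vesicle is seen.

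RNA of Notophthalmus viridescens, all adult and wild-caught, was sequenced from dorsal iris in 4 groups of 3 libraries: intact eyes with no lentectomy, and eyes collected at 6 hpl, 1 dpl and 4 dpl. Each library pooled the dorsal irises of both eyes of 3 or 4 animals, so a library is a mean over animals and differences between individual newts cannot be seen. Libraries were made from an input of 108 ng of total RNA, and overrepresented transcripts were depleted during preparation. No cell type was selected, so iris epithelium, stroma and any blood or immune cells in the tissue were read together. In such bulk samples, more cells of a type and more RNA per cell cannot be told apart.

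The transcripts are known by an ID alone. Neither gene names nor sequences were paired with the IDs in the table, so no gene function is given for any of the 99, and the tissue label could not be set against marker genes. Several IDs can be fragments or isoforms of 1 gene, so 99 transcripts are not 99 genes. The abundance values were on the authors' normalised scale. Library sums lay between 27737613 and 40770545, and read depth could not be recovered from them.

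The selection narrowed in steps. Of the 856451 transcripts, 53738 had a mean of 50 or more at both 1 and 4 dpl. These are used below as a comparison class (the abundance class). It is bounded from below at these times only, so its early levels need not be like those of the set. Within this class, 48784 kept the group means within the limit, and 99 of those had the required gap. All 99 passed the filter on low values used for the tests (a value of 1 or more in at least 3 libraries). A further 40 transcripts had the mean and the gap but differed by more than 1.5 between intact eyes and 6 hpl or between 1 and 4 dpl. Only part of the class separated the late from the early libraries at all, since 2401 transcripts had every late value above every early one.

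The gap had a median of 1.86 and reached 3.34. It was 2 or more in 41 transcripts, 3 or more in 6, and between 1.5 and 1.6 in 17. The transcript just inside the limit had a gap of 1.505, with a lowest late value of 112.8 and a highest early value of 39.1. The transcript just outside had a gap of 1.498, with values of 28.3 and 9.36, and 13 transcripts lay between 1.4 and 1.5. No break in the values lay at 1.5. The same rule was applied to other times of onset, but without its limit of at most 200 transcripts. It chose 265 transcripts high at 6 hpl, 1 dpl and 4 dpl, 23 high at 1 dpl alone and 270 high at 4 dpl alone. Turned round, to transcripts high in intact eyes and at 6 hpl, it chose 12. The mean, the gap and the limit on group means fall on other groups in each pattern. The rule is thus not equally strict, and these counts are no measure of how common each pattern was.

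The widest gap belonged to transcript 5_37120827. Its abundance was 5.76, 12.4 and 2.43 in intact eyes, 9.53, 6.75 and 10.9 at 6 hpl, 142, 228 and 329 at 1 dpl, then 135, 521 and 175 at 4 dpl. The 6 early libraries were all low and the 6 late libraries were all high, with 4 dpl replicate 2 above every other. The lowest late value was 10.9 times the highest early one. Group means were 6.87 ± 5.09 in intact eyes, 9.07 ± 2.12 at 6 hpl, 233 ± 93.7 at 1 dpl and 277 ± 212 at 4 dpl (SD, n = 3 each). The log2 difference was 5.03 at 1 dpl and 5.10 at 4 dpl against intact eyes, and 0.55 at 6 hpl against intact eyes (SE 0.52 for each). At 0.07, the difference of 4 dpl from 1 dpl for 5_37120827 was well under its SE of 0.52, and 1 and 4 dpl overlapped.

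Transcript 8_68255132 had the highest abundance of the set, with a mean of 4338 over the late libraries. Its values were 76.7, 232 and 122 in intact eyes, 177, 73.8 and 133 at 6 hpl, 4191, 1889 and 4609 at 1 dpl, then 6047, 3913 and 5378 at 4 dpl. Intact eyes and 6 hpl overlapped, 1 dpl and 4 dpl overlapped, and the early and late libraries lay far apart, the lowest late value being 8.13 times the highest early one. Group means of 8_68255132 were 143 ± 80.0 in intact eyes, 128 ± 51.6 at 6 hpl, 3563 ± 1465 at 1 dpl and 5112 ± 1092 at 4 dpl (SD, n = 3 each). Its log2 difference from intact eyes was -0.11 at 6 hpl, 4.67 at 1 dpl and 5.27 at 4 dpl (SE 0.43 for each). The difference of 4 dpl from 1 dpl was 0.60.

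**Figure D1:**
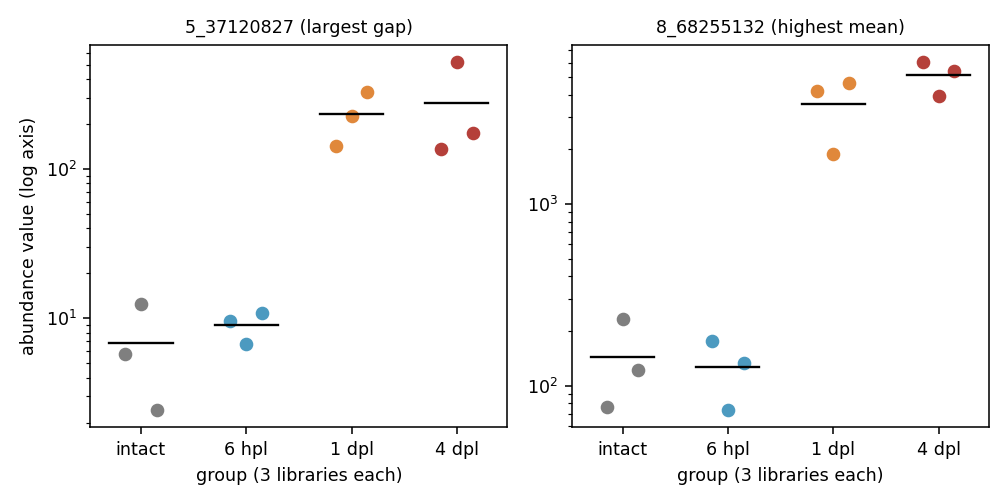
Abundance of 5_37120827 and 8_68255132 in each library (points, log axis) with the mean of each group of 3 libraries (lines). In both, the 6 early libraries lie below the 6 late ones, by at least 10.9 times for 5_37120827 and 8.13 times for 8_68255132.

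Other members with wide gaps showed how far the late level could vary. The second widest gap belonged to a transcript at 4.67, 11.2 and 10.8 in intact eyes, 10.04, 9.92 and 9.29 at 6 hpl, 134, 117 and 168 at 1 dpl, then 156, 172 and 134 at 4 dpl. It stood near one low and one high level, with 1 intact library below the other early ones. The third was at 1.78, 1.46 and 1.32 in intact eyes, 1.57, 4.998 and 2.80 at 6 hpl, 265, 117 and 114 at 1 dpl, then 70.6, 55.5 and 155 at 4 dpl. Its mean was higher at 1 dpl than at 4 dpl, although the libraries of the 2 groups overlapped. The fourth was at 13.5, 16.7 and 5.48 in intact eyes, 6.34, 11.5 and 16.1 at 6 hpl, 166, 187 and 159 at 1 dpl, then 363, 335 and 491 at 4 dpl. In this one all 3 libraries of 4 dpl were above all 3 of 1 dpl.

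On the deposited scale, few members came near 8_68255132. The mean over the late libraries was 1000 or more in 3 transcripts, 500 or more in 16 and under 100 in 35. The second most abundant was at 57.0, 165 and 101 in intact eyes, 272, 69.2 and 125 at 6 hpl, 801, 1054 and 1993 at 1 dpl, then 2532, 2964 and 2781 at 4 dpl. One library of 6 hpl held the highest early value, and 4 dpl was above 1 dpl without overlap. The third was at 68.3, 80.1 and 73.5 in intact eyes, 139, 74.3 and 93.3 at 6 hpl, 474, 467 and 973 at 1 dpl, then 1533, 1525 and 1608 at 4 dpl. Its values were tight within intact eyes and within 4 dpl, and 1 dpl lay between them.

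The median of the group means over the 99 transcripts was 8.99 in intact eyes (quartiles 3.92 and 21.7), 11.7 at 6 hpl (5.85 and 33.3), 130 at 1 dpl (74.1 and 247), then 176 at 4 dpl (102 and 375). Over all 855254 transcripts tested, the same median was 8.58, 8.46, 8.44 and 8.51 at these 4 times, and so hardly moved. Single group means in the set ranged from 51.9 to 5112 at 4 dpl and from 1.24 to 143 in intact eyes. The log2 difference of the late from the early groups had a median of 3.76 and ranged from 1.95 to 5.66. The smallest belonged to a transcript at 25.7, 28.2 and 37.3 in intact eyes, 36.9, 41.1 and 38.8 at 6 hpl, 163, 142 and 132 at 1 dpl, then 137, 124 and 119 at 4 dpl. The largest belonged to one at 0.613, 7.199 and 2.89 in intact eyes, 15.9, 13.2 and 3.20 at 6 hpl, 339, 89.8 and 295 at 1 dpl, then 399, 1162 and 204 at 4 dpl. The first had little spread within any group, and the second spread widely in all 4.

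The working name of the set was transcripts switched on from 1 day, and the early values bear on it. In 91 of the 99 transcripts no early library was at 0. In 6 of them 1 early library was at 0, in 2 of them 2 were, and no late library was at 0 in any. All 6 early values were 10 or less in 28 transcripts. For these counts, the shares of all transcripts tested were not recorded. The lowest late value was between 2.88 and 11.1 times the highest early one (median 3.83), a ratio whose lower end is set by the rule. Over the set, the lower quartile, median and upper quartile of the group means were 3.92, 8.99 and 21.7 in intact eyes. At 6 hpl they were 5.85, 11.7 and 33.3. Over all transcripts tested they were 5.21, 8.58 and 15.4 in intact eyes, and 5.29, 8.46 and 15.3 at 6 hpl. Transcript 8_68255132 had means of 143 and 128 at these times, so its value rose from a measured level above 0. Whether reads shared with other IDs add to that level was not tested. A value of 0 need not mean that a transcript was absent, and the value an unexpressed transcript would take on this scale is not known. For members with low early values, it is thus not shown whether they were off before 1 dpl.

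**Figure D2:**
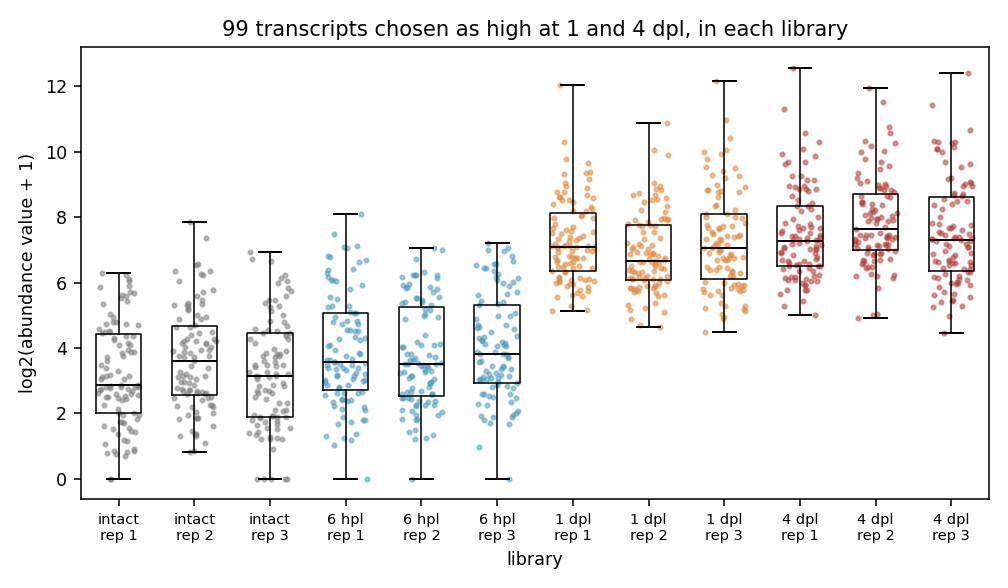
log2(abundance + 1) of the 99 transcripts in each of the 12 libraries (points), with the median, quartiles and full range (boxes and whiskers). Library medians lie between 101 and 197 in abundance in the 6 late libraries and between 6.27 and 13.2 in the 6 early ones.

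The set was also read library by library. Its median abundance was 6.27, 11.2 and 7.83 in intact eyes, 10.9, 10.3 and 13.2 at 6 hpl, 136, 101 and 132 at 1 dpl, then 154, 197 and 158 at 4 dpl. Summed, the 99 transcripts took between 0.00462% and 0.00694% of the library sum in intact eyes, between 0.00694% and 0.00770% at 6 hpl, between 0.0649% and 0.0786% at 1 dpl, and between 0.0897% and 0.104% at 4 dpl. The sums of the 4 groups did not overlap in the order of time, though the 2 early groups came close. The set remained a small fraction of the summed abundance at its highest. Intact replicate 2 lay 0.28 log2 units above its group's mean at the median member, 1 dpl replicate 2 lay 0.22 below and 4 dpl replicate 2 lay 0.22 above. For 1 dpl replicate 2, which also had the lowest library sum, the median of the abundance class deviated alike, by -0.23, whereas for intact replicate 2 and 4 dpl replicate 2 it deviated by -0.01 and -0.05.

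One library did more than the others to fix the size of the set. The lowest late value came from 1 dpl replicate 2 in 38 transcripts, from 1 dpl replicate 3 in 23 and from 1 dpl replicate 1 in 10, and the libraries of 4 dpl gave it in 13, 8 and 7. Without 1 dpl replicate 2 the rule, with no limit on the number taken, chose 261 transcripts, 95 of the 99 among them. Leaving out any other single library gave between 93 and 147. The highest early value came from 6 hpl replicates 1, 2 and 3 in 28, 16 and 34 transcripts, and from the same replicates of intact eyes in 5, 12 and 4.

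Within the late pair of groups, most of the set had a higher mean log2 value at 4 dpl than at 1 dpl. The rule used these values too, through the limit of 1.5, the mean of 50 and the gap, whose lowest late library was one of 1 dpl more often than one of 4 dpl, so the shares below are a description and nothing is read from their distance to the class. The log2 difference of 4 dpl from 1 dpl had a median of 0.55 over the set and ranged from -0.84 to 1.45, against a median of 0.00 over all transcripts tested and 0.11 over the abundance class. It was positive in 80 of the 99 (80.8%), against 57.8% of the class. It was above 0.5 in 53 transcripts, within 0.5 of 0 in 43 and below -0.5 in 3. Without 4 dpl replicate 2, the library with the highest median, the median over the set was 0.29.

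Members at the ends of this range show what the difference looked like. The transcript with the largest was at 326, 277 and 397 at 4 dpl, against 110, 77.8 and 201.2 at 1 dpl, with early values between 10.2 and 25.4. Its 4 dpl libraries were all above its 1 dpl libraries. The transcript with the lowest was at 64.8, 74.8 and 95.4 at 4 dpl, against 195, 79.7 and 175 at 1 dpl, with early values between 3.74 and 20.9. Here the 2 groups overlapped through 1 dpl replicate 2. In 21 of the 99 (21.2%) all libraries of 4 dpl were above all of 1 dpl, beside 8.56% of all transcripts tested and 15.3% of the class. In 0 of the 99 were all of them below, beside 6.54% of all and 3.71% of the class.

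Within the early pair, most of the set had a higher mean log2 value at 6 hpl than in intact eyes. These values entered the rule as well and are likewise a description. The class was mostly not low early, since its log2 difference of 1 dpl from intact eyes had a median of 0.12, against 3.70 in the set. It is thus no comparison at like abundance here. The log2 difference of 6 hpl from intact eyes had a median of 0.60 over the set, ranging from -1.11 to 1.48. Its median was -0.01 over all transcripts tested and 0.18 over the class. This difference was positive in 85 of the 99 (85.9%), against 59.7% of the class, above 0.5 in 61, within 0.5 of 0 in 36 and below -0.5 in 2. The transcript with the largest difference was at 7.88, 3.27 and 9.83 at 6 hpl, against values between 1.39 and 2.04 in intact eyes, and between 38.2 and 236 later. The transcript with the lowest was at 4.08, 0 and 3.05 at 6 hpl, against 5.04, 4.54 and 5.14 in intact eyes. In 21 (21.2%) all libraries of 6 hpl were above all of intact eyes, beside 12.7% of all transcripts tested and 22.3% of the class, and in 2 they were all below, beside 10.3% of all and 6.49% of the class.

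**Figure D3:**
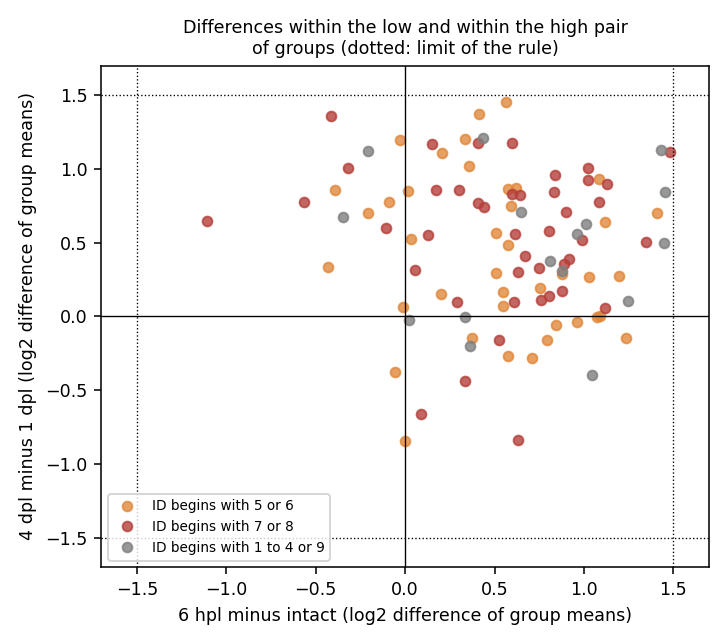
Each point is 1 of the 99 transcripts, placed by its log2 difference of 6 hpl from intact eyes (x axis) and of 4 dpl from 1 dpl (y axis), and coloured by the first digit of its ID. Dotted lines mark the limit of 1.5 set by the rule, and 67 of the 99 points lie above 0 on both axes.

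The larger step fell between 6 hpl and 1 dpl. Its log2 size had a median of 3.18 and ranged from 1.87 to 5.30, and it made up a median of 73.4% of the whole difference between intact eyes and 4 dpl (range 45.8% to 127%). A share above 100 belongs to a transcript that was below its 1 dpl level at 4 dpl or below its intact level at 6 hpl. In 67 of the 99 (67.7%) both smaller differences were positive, against 43.5% of the class and 26.0% of all transcripts tested. The rule demands the step between them, so in these 67 the mean log2 values climbed from each time to the next. The shares of the class and of all transcripts required no rise from 6 hpl to 1 dpl. In 28 of the 99 both smaller differences exceeded 0.5, and in 11 both stayed within 0.5 of 0, which is the plainest step. The highest mean abundance, before the log transform, was at 4 dpl in 82 transcripts and at 1 dpl in 17, and the lowest was at 6 hpl in 15 and in intact eyes in 84. Within groups, the median SD over the set was 0.57 in intact eyes, 0.50 at 6 hpl, 0.54 at 1 dpl and 0.54 at 4 dpl on the log2 scale. Over all transcripts tested it was 0.55, 0.46, 0.61 and 0.55. The required gap limits the spread within groups, and most transcripts tested were far less abundant than the set in the late groups. Nothing is thus read from the likeness of these values.

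A limma fit across all 855254 transcripts tested gave the calls (Benjamini-Hochberg adjusted p under 0.05). The rule chose the set on the same libraries, so nothing is read from the counts that follow. Against intact eyes, 99 members were called higher at 1 dpl, beside 1.94% of all transcripts tested, and 99 at 4 dpl, beside 3.88%. Against 6 hpl, 98 were called higher at 1 dpl, beside 0.263%, and 99 at 4 dpl, beside 2.11%. All 6 late libraries were above all 6 early ones in all 99, as the rule demands, beside 1.19% of all transcripts tested and 4.47% of the class.

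Inside the pairs few calls were made. The rule holds these differences within 1.5, which limits such calls, so nothing is read from their low number. At 6 hpl, 1 of the 99 was called higher than in intact eyes by limma, beside 2.06% of all transcripts tested. This single call was lost on leaving out any one of intact replicate 1, 6 hpl replicates 1 and 3 and the 3 libraries of 4 dpl, and 2 were called without intact replicate 3 or 1 dpl replicate 2. At 4 dpl, limma called 0 of the 99 higher than at 1 dpl, beside 0.509% of all, and 0 lower, beside 0.21%. At an unadjusted p under 0.05, limma had 21 higher and 0 lower at 4 dpl than at 1 dpl, beside 6.84% and 5.22% of all transcripts tested. It had 22 higher and 1 lower at 6 hpl than in intact eyes, beside 9.29% and 6.15% of all. Without 1 dpl replicate 3, 3 were called between 4 and 1 dpl. For the fits with a library left out, neither direction nor the share of all transcripts called was recorded. Nothing is thus read from those counts. The SE of a single member's difference had a median of 0.45, close to the median differences of 0.55 and 0.60 themselves, so for most members the smaller differences were not resolved one by one.

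The IDs were not spread evenly. Each ID is a leading digit and a number, and the leading digit was 5, 6, 7 or 8 in 24, 16, 23 and 20 of the 99 transcripts. Together these digits held 83 (83.8%) of the set, against 46.0% of the abundance class and 43.4% of all transcripts tested. The digits 1 to 4 held 14 (14.1%), against 51.1% of the class, and the digit 9 held 2. No source used here says what the digits stand for. Reads of each condition were assembled separately before merging, and whether the digits follow those assemblies was not tested. In the class as a whole, the late groups exceeded the early ones by a median of 0.21 log2 units for digits 5 to 8 and 0.04 for digits 1 to 4. Within the set, the difference of 4 dpl from 1 dpl had a median of 0.16 for digit 5 and 0.73 for digit 6. It was 0.58 for digit 7 and 0.62 for digit 8. The class had 0.01, 0.05, 0.25 and 0.19 for digits 5, 6, 7 and 8.

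**Figure D4:**
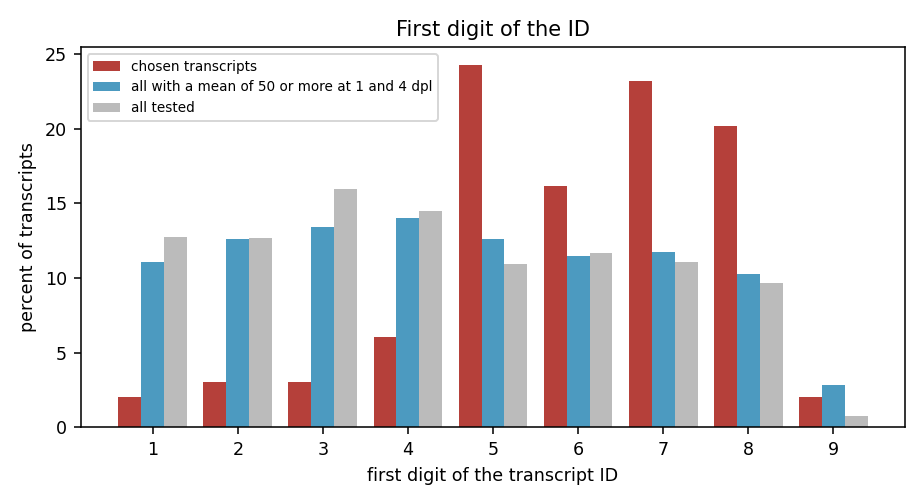
Percent of transcripts by the first digit of the ID, for the 99 chosen transcripts, for the 53738 with a mean of 50 or more at 1 and 4 dpl, and for all transcripts tested. Digits 5 to 8 hold 83.8% of the chosen transcripts and 46.0% of the class.

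Transcripts numbered close to a chosen one tended to follow it. This comparison was made after the values had been seen. The rule takes no account of the ID number, and the chosen transcripts were left out. There were 68 other transcripts within 5 numbers of a chosen one, and all began with the same digit as it. Among the chosen transcripts the numbers rise from digit to digit without overlap, so close numbers would mostly share a digit anyway. The median over the 68 was 4.53, 4.32 and 3.76 in the intact libraries, 8.88, 5.23 and 6.96 at 6 hpl, 21.4, 15.7 and 14.9 at 1 dpl, then 18.3, 16.0 and 16.3 at 4 dpl. The late libraries were thus above the early ones at a level well under that of the set, and the levels at 1 and 4 dpl were alike. In all, 14 of the 68 reached a mean of 50 in both late groups and none had a gap of 1.5 or more. For those 14 the rule nearly fixes this. With such a gap they would have been chosen, unless their group means were outside the limit.

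The log2 difference of the late from the early groups had a median of 1.69 over these 68 (quartiles 0.56 and 2.63), against -0.04 over all transcripts tested. It was positive in 55 (80.9%), against 47.4% of all, above 1 in 46 and below -1 in 2. By limma, 36 (52.9%) were called higher in the late groups, beside 3.05% of all transcripts tested, and 2 were called lower, beside 2.42%. The median fell off with distance, to 0.65 at 6 to 10 numbers (45 transcripts), 0.08 at 11 to 20 (95), 0.14 at 21 to 50 (221), 0.12 at 51 to 200 (957) and 0.13 beyond 200 and up to 1000 (5103). The share called higher was 33.3%, 12.6%, 6.34%, 6.79% and 6.68% over these distances. Neighbouring IDs may be fragments or isoforms of the same gene and may share reads, which was not tested, so they are no independent measurement.

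**Figure D5:**
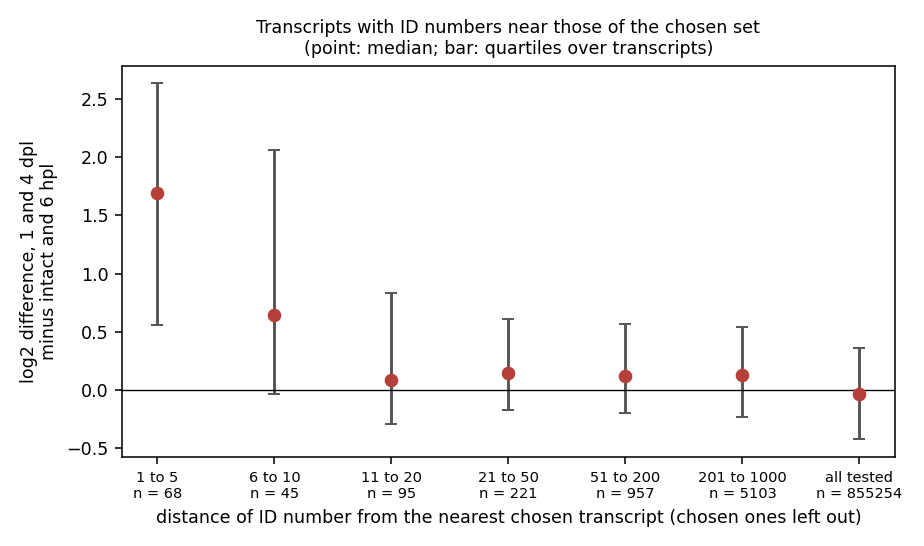
log2 difference of the late (1 and 4 dpl) from the early (intact and 6 hpl) groups for transcripts outside the set, by the distance of their ID number from the nearest chosen transcript (points, medians; bars, quartiles over transcripts). The median is 1.69 within 5 numbers, 0.65 at 6 to 10, and between 0.08 and 0.14 from 11 numbers on.

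The 2 named transcripts had such neighbours too. Within 20 numbers of 8_68255132 lay 2 other transcripts, both higher in the late groups, by up to 3.23 log2 units. Within 20 numbers of 5_37120827 lay 6, of which 4 were higher in the late groups, by up to 2.75. On 2 occasions a pair of chosen transcripts lay near each other. One pair was 11 numbers apart, with values at 4 dpl of 121, 337 and 138 in one and 114, 349 and 184 in the other. Both had their highest value in 4 dpl replicate 2. The other pair was 10 numbers apart, at 31.3, 103 and 63.6 and at 399, 1162 and 204, and among the libraries of 4 dpl both were again highest in replicate 2.

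Because every library helped to choose the set, the rule was also applied to 8 libraries, with 1 replicate number left out of every group, and the pattern was read in the 4 libraries left out. The left-out libraries did not enter that choice, but the rule itself was set with earlier results of these data known. Its limit of at most 200 transcripts was not applied here. Chosen transcripts can be fragments or isoforms of the same gene, so the shares below are not counts of independent cases. The class beside them was chosen for no gap, so nothing is read from the distance between the shares. Those among the 99 keep the order by definition, since the full rule used the left-out libraries too. With replicate 1 left out, 191 transcripts were chosen, 84 of them among the 99, and in 172 (90.1%) both left-out late libraries were above both left-out early ones, against 32.2% of the 50834 transcripts with a mean of 50 or more at 1 and 4 dpl in the same 8 libraries. With replicate 2 left out, 302 were chosen, 80 among the 99, and 260 (86.1%) kept the order, against 17.6% of the 54357 transcripts of that mean. With replicate 3 left out, 199 were chosen, 82 among the 99, and 181 (91.0%) kept it, against 26.1% of 52547.

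In the left-out libraries the median gap was 1.76, 1.21 and 1.80 log2 units for replicates 1, 2 and 3, against -0.40, -0.58 and -0.40 in the class of that mean. In the 8 libraries that chose them, the same transcripts had median gaps of 2.003, 1.904 and 2.128, where a gap of 1.5 or more was required. In the left-out libraries a gap of that size was reached by 110 of 191, 120 of 302 and 125 of 199, beside 2.18%, 1.29% and 2.12% of the class. With only 1 library a group, no spread can be set beside these values.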

How the data were processed

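Abundance was measured in 12 bulk libraries of dorsal iris, grouped by the time point in the labels. Per the methods, the authors trimmed reads with Trim Galore, removed ribosomal reads with Bowtie2 and the Silva database, assembled each condition separately with Trinity, merged the assemblies with DRAP runMeta, and estimated abundance with Salmon, correcting for sequence and GC bias and averaging over inferential replicates. The authors tested with Swish, which needs those replicates. For the authors' tools, versions are not given in the sources used here. Values as deposited were taken to be a normalised signal per transcript. They are described as TPM, but the library sums exceed 1000000, so the scaling is not known and the values keep no read depth. No interval from counts was computed. A common scaling cannot show a shift shared by most transcripts. All columns were mapped to samples.

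Values were transformed as log2(value + 1), which understates changes of low transcripts. The rule was a mean of 50 or more at 1 and 4 dpl, group means within 1.5 and a gap of 1.5 or more. It takes at most 200 transcripts, a number not reached by the set. This limit was not applied to the other times of onset, to the left-out libraries or to the alternatives. The members, lists and tests were chosen with earlier results of these data known. Transcripts at 1 or more in at least 3 libraries were tested (855254 kept, 1197 left out). A model of group means over all 12 libraries, with no covariate, was fitted with limma 3.58.1 (moderated by empirical Bayes, variance trend included, two-sided, Benjamini-Hochberg adjusted p under 0.05, called transcripts) in R 4.3.3 with data.table (version 1.17.8), and was tested on simulated data. The p-values rest on the spread between libraries, which holds differences between pools of animals together with those of library preparation and measurement. The rule and figures were run in Python 3.11.15 with pandas 2.3.3, numpy 2.4.6 and matplotlib 3.10.9. By rule, the transcripts with the largest gap and with the highest late mean were named, and those described without an ID were taken by their rank. Transcripts near a member in ID number were examined after the values had been seen. Alternatives varied the pseudocount, filters, thresholds of the rule, scaling, variance trend, groups in the fit, replicate block and libraries used.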

Additional observations from a re-analysis of the deposited data

How the results depend on the processing

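The number chosen, counted here without the limit of 200, depended on the thresholds. Against 99, the rule gave 173 with a mean of 25 or more, 54 with a mean of 100 or more, 231 with a gap of 1 or more, 41 with a gap of 2 or more and 64 with group means within 1. It was 191, 302 and 199 without replicate 1, 2 or 3 of every group and 261 without 1 dpl replicate 2, ranging from 93 to 302 over all such omissions. With each library scaled to the same sum or on abundant transcripts it was 147 (93 of the 99 among them) and 118 (82 among them). A pseudocount of 5 lowered the median log2 difference over the set to 3.11 for 1 dpl and 3.62 for 4 dpl against intact eyes, and to 2.73 for 1 dpl and 3.31 for 4 dpl against 6 hpl. For 4 dpl against 1 dpl, the median ranged from 0.29 to 0.64 with 1 library left out. These medians were taken over the same 99 members throughout, and none changed direction under any alternative run. For the late against the early groups, the gap that the rule requires nearly fixes this, so nothing is read from it. The 2 scalings moved the median of all transcripts for 6 hpl against intact eyes to -0.15 and -0.20, and for 4 dpl against 1 dpl to -0.16 and -0.12, while the medians over the set stayed positive, at 0.46 and 0.41 and at 0.36 and 0.41.

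The 1 member called higher at 6 hpl than in intact eyes was 0 with a pseudocount of 0.1 or 5, with no variance trend and under both scalings, and 0 to 2 with 1 library left out. Between 4 and 1 dpl the count, in either direction, ranged from 0 to 3 with 1 library left out. With the replicate block it was 2 for 6 hpl against intact eyes, and the other counts of calls stayed within 1.5 times. The replicate numbers gave no sign of pairing the samples. Same-numbered libraries of different groups had deviations correlated between -0.186 and 0.0542 over 18 pairs. For differently numbered libraries the correlations lay between -0.0971 and 0.221 over 36 pairs, with 2 above 0.1. Whether libraries shared a batch across numbers was not tested. The transcripts within 5 ID numbers of a member called higher ranged from 31 to 38 over all alternatives, beside 36. Causes of these changes were not tested. With 3 libraries a group and no recoverable depth, counting error could not be separated from the spread between pools.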
